A study of Mus musculus with 6 samples.

Results

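The carbonic anhydrases are described here in basal keratinocytes of mouse ear epidermis, through 6 genes of the family: Car2, Car5b, Car8, Car9, Car12 and Car13. They were chosen from the 16 carbonic anhydrase genes among the 49671 genes of the expression table, and they are found by gene name. The choice was made with earlier results of these libraries known, and which measured values were used was not recorded. Their levels and all 3 comparisons between groups are therefore given as a description, with fold changes and their errors but no p-value for a chosen gene. Of the 6 genes, 5 passed the filter on low values described below, and Car8 did not.

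RNA was sequenced in 6 libraries of sorted cells from CD1 mice, an outbred stock: 2 libraries of intact males, 2 of females and 2 of castrated males. Each library pooled 100000 living cells of 2 littermates, so a group rests on 2 pools and 4 mice, and the litter cannot be told apart from the sex or treatment. The sort took cells negative for the bulge marker CD34 and positive for integrin alpha 6, the mark of basal cells. The age of the mice, the time after castration and any sham operation of the intact males are unknown from the labels.

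Carbonic anhydrases are zinc enzymes that turn carbon dioxide and water into bicarbonate and a proton, and back. Members differ in place: some sit in the cytosol, some in mitochondria, and some span the plasma membrane with the active site outside the cell, where they set the pH at the cell surface. A few members have lost the activity and are named as carbonic anhydrase-related proteins. Carbonic anhydrase IX is a textbook target of hypoxia-inducible factors, the transcription factors that accumulate when oxygen is low.

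Promoter windows, from 250 bases before to 50 bases after the transcription start, were held by RefSeq (GRCm38.p6) for 3 of the 6 genes, and for 11 of the 16 in the family. They are shown because they set 2 genes that were high in females, Car9 and Car12, beside Car5b, whose groups overlapped. In capitals, on either strand, are the cores of hypoxia response elements (ACGTG and GCGTG), the GC box (GGGCGG) and the AP-1 site (TGANTCA). The windows are chr4:43506776-43507075 on the plus strand for Car9, chr9:66713436-66713735 on the plus strand for Car12, and chrX:164027961-164028260 on the minus strand for Car5b, each written 5′ to 3′ along its gene.
Car9: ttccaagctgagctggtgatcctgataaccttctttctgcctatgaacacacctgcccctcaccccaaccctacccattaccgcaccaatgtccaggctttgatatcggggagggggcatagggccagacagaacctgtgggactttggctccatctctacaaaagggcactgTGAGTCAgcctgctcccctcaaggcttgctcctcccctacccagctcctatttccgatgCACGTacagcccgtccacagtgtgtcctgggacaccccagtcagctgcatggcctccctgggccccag
Car12: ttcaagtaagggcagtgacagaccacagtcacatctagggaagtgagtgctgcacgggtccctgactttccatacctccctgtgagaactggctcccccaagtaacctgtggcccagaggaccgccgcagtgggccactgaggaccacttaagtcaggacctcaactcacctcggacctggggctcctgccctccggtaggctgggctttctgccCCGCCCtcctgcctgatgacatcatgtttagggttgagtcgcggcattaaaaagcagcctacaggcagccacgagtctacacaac
Car5b: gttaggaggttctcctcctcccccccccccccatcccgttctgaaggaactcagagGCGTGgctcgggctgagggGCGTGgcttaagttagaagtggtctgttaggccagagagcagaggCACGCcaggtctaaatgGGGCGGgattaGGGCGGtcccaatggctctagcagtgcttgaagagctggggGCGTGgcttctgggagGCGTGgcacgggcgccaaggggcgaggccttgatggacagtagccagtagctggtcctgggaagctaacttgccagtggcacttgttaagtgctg

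The Car9 window held 1 ACGTG core, read on the reverse strand from position -18 to -14 relative to the start, and 1 AP-1 site from -77 to -71. The Car12 window held neither hypoxia core, and its only match was 1 GC box on the reverse strand from -35 to -30. The Car5b window held 5 GCGTG cores and 2 GC boxes. Of 32851 windows of the same length, 19.6% held ACGTG, 32.4% GCGTG, 35.7% GGGCGG and 7.81% TGANTCA. A match to a hypoxia core or the GC box is therefore common, and a match to the AP-1 site less so. These shares count windows with any match, so they give no background for the 5 GCGTG cores of the Car5b window. The TATA box (TATAAA), a half-site of androgen and glucocorticoid receptors (AGAACA) and a half-site of estrogen receptors (AGGTCA), searched on both strands, were in none of the 3 windows and in 13.6%, 19.0% and 16.3% of all windows. The GC content was 58.3% in the windows of Car9 and Car12 and 61.7% in that of Car5b, against a median of 52.7% over all windows.

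The libraries held 8412487 to 9648154 reads, recovered from the deposited values, and levels are CPM (reads divided by the scaled library size, so that libraries compare). Means are given ± SD with n = 2 libraries per group, and intervals of a single library are exact 95% Poisson intervals that cover counting error only. Fold changes are log2 values ± SE on log2(CPM + 0.5), which understates the change of low genes. A gene is called where the adjusted p of limma was below 0.05 among the 15413 genes past the filter, a level worth 10 reads (1.16 CPM) in at least 2 libraries and 15 reads in total. The Y-linked genes Ddx3y, Eif2s3y, Kdm5d and Uty had 341 to 1937 reads in every male and castrated male library and 0 to 2 in the females, so they followed the labelled sex. They do not check the castration. The basal keratins Krt5 and Krt14 had group means from 10732 ± 1011 to 15513 ± 2726 CPM. The summed level of the 9 basal keratinocyte markers was 44592 to 51103 CPM for the males, 42964 to 44655 for the females and 47459 to 47564 for the castrated males.

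Among the membrane enzymes, Car12, which encodes the transmembrane carbonic anhydrase XII, carried the most reads of the family. Its gene lies at chr9:66713686-66766845 (GRCm38, plus strand). Its level was 190.0 and 129 CPM in the males, 433 and 686 CPM in the females, and 163 and 212 CPM in the castrated males. Both female libraries lay above the 4 others, whose ranges overlapped. The mean of 560 ± 179 CPM in females was 3.50 times that of 160 ± 42.8 CPM in males (log2 fold change 1.79 ± 0.25). The castrated males had 188 ± 34.7 CPM, lower than the females by a log2 fold change of -1.55 ± 0.25. The female libraries differed from each other by 1.58 times, and the fitted difference from males was 1.46 without female replicate 2, where Car12 was no longer called. Against females, Car12 also lost its call without either castrated male library (-1.36 and -1.74).

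Car9 encodes the transmembrane carbonic anhydrase IX and was a low gene (chr4:43506966-43513729, plus strand). It had 21 and 5 reads in the males, 56 and 56 in the females, and 13 and 20 in the castrated males. These are 2.24 (interval 1.39 to 3.42) and 0.588 (0.191 to 1.37) CPM in the males, 5.73 (4.33 to 7.43) and 7.18 (5.42 to 9.32) CPM in the females, and 1.48 (0.787 to 2.53) and 2.28 (1.39 to 3.52) CPM in the castrated males. The counting interval of each female library lay above those of the other 4. Females had 6.45 ± 1.03 CPM against 1.41 ± 1.17 in males (log2 fold change 2.00 ± 0.45) and 1.88 ± 0.565 in castrated males (-1.56 ± 0.45 for castrated males against females). The gene was called between females and males and not between castrated males and females. The first call was lost in 10 of 16 alternative settings, among them those without male replicate 2 (1.34), either female library (2.15 and 1.85) or either castrated male library (2.00). An antisense gene, Gm12454, shares exon bases with Car9 and had 5 to 22 reads per library, and without a stated strand setting the reads of the pair cannot be told apart.

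The soluble enzymes of the cytosol are Car2 and Car13, which lie on chromosome 3 within one cluster. Car2 encodes carbonic anhydrase II, a highly active form found in red blood cells, kidney and bone-resorbing cells (chr3:14886273-14900770, plus strand). It had 11 and 14 reads in the males, 303 and 426 in the females, and 5 and 12 in the castrated males. As levels these are 1.17 and 1.64 CPM, 31.0 and 54.6 CPM, and 0.569 and 1.37 CPM. No library outside the female group came near the female range, and the males and castrated males overlapped. The mean level was 42.8 ± 16.7 CPM in females, 30.4 times the 1.41 ± 0.335 CPM of males, with a log2 fold change of 4.46 ± 0.38. Castrated males stood at 0.967 ± 0.564 CPM, a log2 fold change of -4.88 ± 0.38 against females. Both comparisons use the same female libraries, so they are not separate results. Car2 was called in both comparisons with females under all 16 alternative settings, with log2 fold changes from 3.67 to 4.86 against males and from -5.43 to -3.88 for castrated males against females.

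Car13 encodes carbonic anhydrase XIII, a cytosolic form (chr3:14641727-14663002, plus strand). Its level was 86.5 and 98.7 CPM in the males, 116 and 169.9 CPM in the females, and 98.6 and 114 CPM in the castrated males. The females lay above the other libraries, though female replicate 1 was close to castrated male replicate 2. With group means of 92.6 ± 8.63, 143 ± 38.1 and 106 ± 11.1 CPM, the log2 fold change was 0.60 ± 0.19 between females and males and -0.40 ± 0.19 between castrated males and females. Neither was called. Without female replicate 1 both were called, at 0.88 and -0.68. Car1 and Car3, which lie between Car13 and Car2 on the chromosome, had 0 reads in all libraries and 0 to 2 reads per library.

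**Figure D1:**
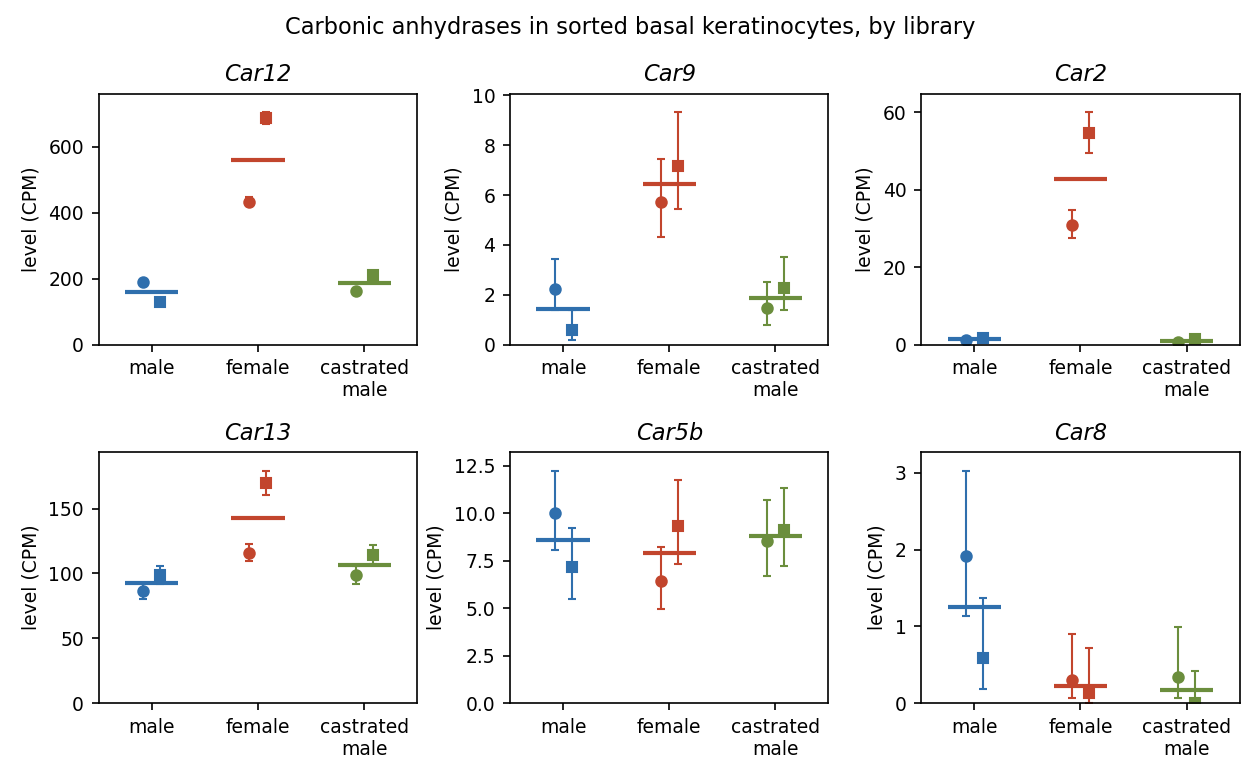
Level in CPM (linear axis from 0) of the 6 carbonic anhydrases in each library of intact males, females and castrated males. Circles are replicate 1 and squares replicate 2, error bars are exact 95% Poisson intervals of the reads, and horizontal lines are group means. Car12, Car9, Car2 and Car13 are highest in both female libraries, Car5b overlaps across the groups, and Car8 has at most 18 reads. The share of all genes that are highest in both females was not counted.

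Car5b encodes the mitochondrial carbonic anhydrase VB and lies on the X chromosome (chrX:163976822-164027997, minus strand). It stood at 10.0 and 7.17 CPM in the males, 6.44 and 9.36 CPM in the females, and 8.53 and 9.11 CPM in the castrated males. The 3 groups overlapped, with means of 8.59 ± 2.01, 7.90 ± 2.06 and 8.82 ± 0.409 CPM. The log2 fold change of females against males was -0.12 ± 0.27, with a 95% interval from -0.72 to 0.49, so a change of up to 1.40 times upward or a fall to 0.606 times was within the error. Females carry a pair of X chromosomes and males a single one, and no difference in the level of this gene was detectable beyond the spread between libraries.

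Car8 encodes a carbonic anhydrase-related protein without the enzyme activity, known from Purkinje cells of the cerebellum (chr4:8143362-8239041, minus strand). It had 18 and 5 reads in the males, 3 and 1 in the females, and 3 and 0 in the castrated males. The value of male replicate 1 was 1.92 CPM (interval 1.14 to 3.03), and the other 5 libraries stood between 0 and 0.588 CPM. The intervals of male replicate 2 (0.191 to 1.37) and female replicate 1 (0.0633 to 0.896) overlapped. Only 1 library exceeded the filter level, so Car8 was left untested, and the males were separated from the other libraries by few reads.

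The family holds 10 further genes, and 3 of them passed the filter. Car14, a transmembrane enzyme, had 15.1 and 12.6 CPM in the males, 10.8 and 9.62 CPM in the females, and 16.6 and 16.9 CPM after castration, so the females were the lowest group without overlap. Its log2 fold changes were -0.42 ± 0.20 for females against males (limma adjusted p = 0.229) and 0.69 ± 0.20 for castrated males against females (adjusted p = 0.107). Reads of Car14 could be mixed with those of Aph1a, which shares exon bases on the opposite strand. Car11, a related protein without activity, had 3.52 and 7.40 CPM in the males, 3.07 and 2.44 CPM in the females, and 2.28 and 3.42 CPM after castration (log2 fold change of females against males -0.80 ± 0.38, adjusted p = 0.230). Car6, which encodes a secreted enzyme of saliva, passed only through the castrated males (14 and 25 reads), against 10 and 2 reads in males and 9 and 2 in females. It was not called, and its log2 fold change of 1.30 ± 0.51 for castrated against intact males is therefore a description. Below the filter, Car1, Car4 and Car10 had 0 reads in every library, where the limit that a count of 0 allows was set at 3 reads (0.307 to 0.385 CPM), Car5a 2 reads in all, Car3 4, Car7 22 and Car15 43. Car15 shares exon bases on the same strand with Gm20518, which had 729 to 1158 reads per library. How reads in the shared bases were counted is unknown, so the count of Car15 may not reflect its level.

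Between females and males, 3 of the 5 chosen genes past the filter were called, Car12, Car9 and Car2, and each was higher in females. Over all genes 940 were called, 6.10%, and 3.70% were called as higher in females. The median log2 fold change was 1.79 over the 5 genes and -0.01 over all genes tested. Between castrated males and females, 2 of the 5 were called, Car12 and Car2, both lower in castrated males, against 1.73% of all genes called and 1.15% called as lower. The median was -1.55 over the 5 and 0.01 over all. The choice of these genes may have used any of these levels, so the counts describe them and support nothing. How many of all genes had both females above the other libraries was not counted. Between females and males, 24.9% of all genes had an unadjusted limma p below 0.05. Without female replicate 2 the counts over all genes fell to 49 and 36, and Car2 alone of the 5 was called in each comparison.

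**Figure D2:**
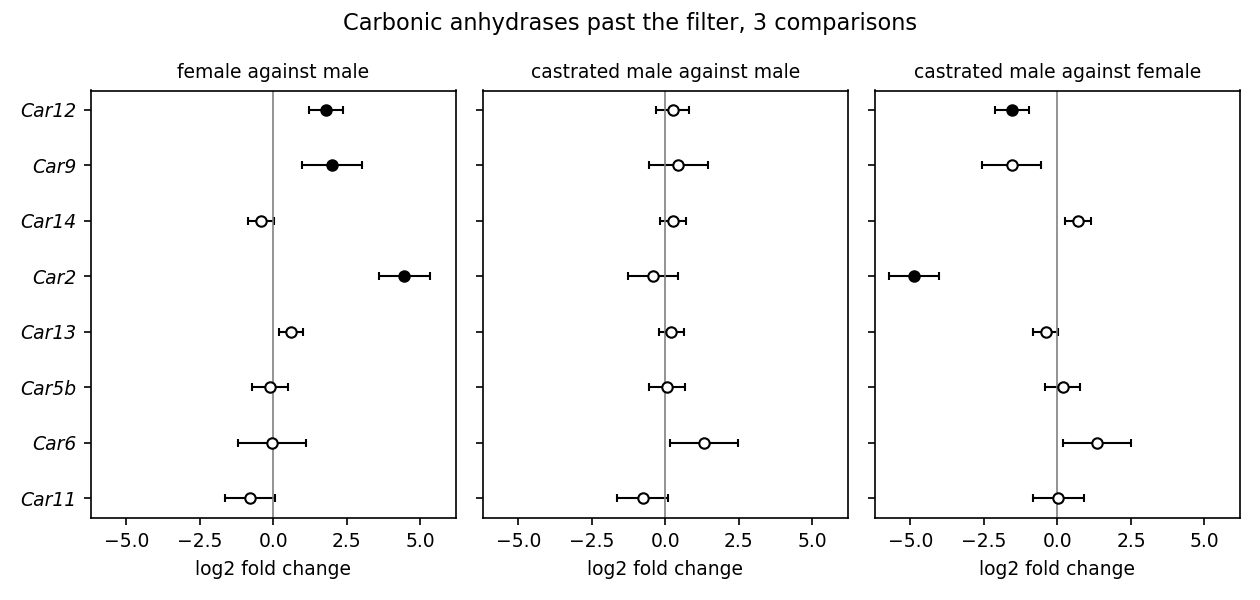
Log2 fold change on log2(CPM + 0.5) with its 95% interval for the 8 carbonic anhydrases past the filter in the 3 comparisons. Filled points were called and open points were not; Car2, Car12 and Car9 lie to the right between females and males, and all 8 points between castrated and intact males are open.

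Castrated males were set against intact males to ask how castration relates to these levels. No chosen gene was called, where 0.0389% of all genes (6 of 15413) were, and none had an unadjusted limma p below 0.05, where 5.93% of all genes did. By voom weights the count of calls was also 0. The choice of the genes may have used this comparison too, so these counts are a description and no test of castration. The log2 fold changes were 0.25 ± 0.25 for Car12 (95% interval -0.32 to 0.81), 0.44 ± 0.45 for Car9 (-0.57 to 1.46), -0.42 ± 0.38 for Car2 (-1.29 to 0.44), 0.20 ± 0.19 for Car13 (-0.22 to 0.62) and 0.05 ± 0.27 for Car5b (-0.55 to 0.66). This comparison shares its 2 male libraries with that of females against males, so the fold changes of both stand side by side only as values.

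Compared per length of exon, the order of the genes was not the same in each group. In males Car13 stood at 40.3 ± 3.75 CPM per kb, Car12 at 21.0 ± 5.64, Car5b at 1.35 ± 0.317, Car9 at 0.613 ± 0.506, Car2 at 0.581 ± 0.138 and Car8 at 0.325 ± 0.244. The libraries of Car9, Car2 and Car8 overlapped, so their order in males was not resolved. In females Car12 led with 73.7 ± 23.6 CPM per kb, within the spread of Car13 at 62.2 ± 16.6, and Car2 followed at 17.7 ± 6.90, above Car9 at 2.80 ± 0.446, Car5b at 1.24 ± 0.325 and Car8 at 0.0564 ± 0.0328. In castrated males the order was that of the males: Car13 46.3 ± 4.83, Car12 24.7 ± 4.56, Car5b 1.39 ± 0.0643, Car9 0.815 ± 0.245, Car2 0.399 ± 0.233 and Car8 0.0443 ± 0.0626 CPM per kb, without overlap between neighbours.

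The length-scaled level summed over all 16 genes was 75.1 and 71.7 CPM per kb in the males, 131 and 198 in the females, and 75.8 and 91.0 after castration. Car13 and Car12 together made up most of it in every library. Car13 held 50.1% and 59.9% of the sum in the males, 38.6% and 37.4% in the females, and 56.6% and 54.7% after castration. Car12 held 33.3% and 23.8%, 43.6% and 45.7%, and 28.3% and 30.7%. The share of Car2 was 0.644% and 0.947% in the males, 9.79% and 11.4% in the females, and 0.310% and 0.620% after castration. The females were apart from the other 4 libraries in all 3 shares, but these are parts of the same sum and not separate results. The lower share of Car13 in females was no fall in its level, which was 62.2 ± 16.6 CPM per kb against 40.3 ± 3.75 in males and 46.3 ± 4.83 in castrated males.

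**Figure D3:**
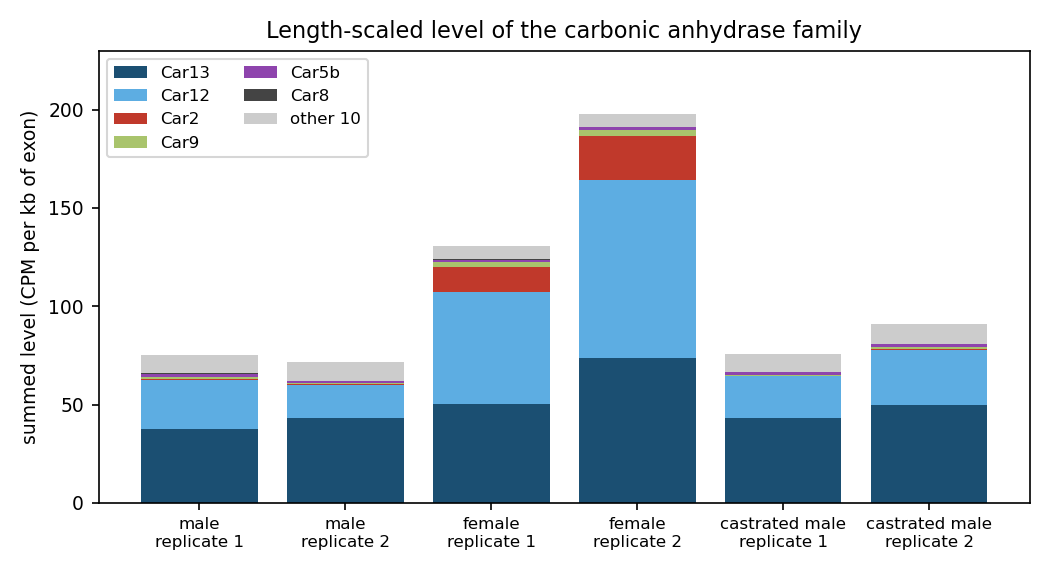
Summed level of the carbonic anhydrase family in each library, in CPM per kb of exon (linear axis from 0), stacked by gene, with the 10 genes outside the chosen 6 in grey. The female libraries reach 131 and 198 CPM per kb, and the Car2 segment is visible in them and very thin in the 4 male and castrated male libraries.

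Across the 6 libraries, log2 levels of Car12 went with those of Car9 (Pearson r = 0.964), Car2 (0.944) and Car13 (0.863), while Car5b had r between -0.27 and 0.07 with the others. These are descriptions over 6 points in which the females stand apart, and the points share library and depth. In the females every chosen gene past the filter was higher in replicate 2 than in replicate 1. The genes most alike in pattern were sought among tested genes that averaged 5 CPM or more and carry an established symbol. These were 10228 candidates for each chosen gene, and 10229 for Car9. For Car2 they were Vangl1 (r = 0.990), Usmg5 (0.990) and Plcg2 (0.988). For Car9 they were Dio2 (0.991), which encodes an enzyme that activates thyroid hormone, Cdc27 (0.990) and Susd2 (0.990), and for Car12 they were Cnih4 (0.999), Pbdc1 (0.998) and Higd1a (0.997), the last a mitochondrial protein on the hypoxia list below. For Car13 they were Eif2s1, Tmem154 and Papola (each 0.996 to 0.997), and for Car5b Sumo3 (0.985) and Rnaseh2b (0.982). In such a search over 6 points the best matches are high by selection, also for Car5b, whose groups overlapped.

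The nearest tested genes on the chromosomes did not all follow. Tpm2, a tropomyosin gene 0.982 kb beyond Car9, rose in females from 74.3 ± 8.70 to 150.3 ± 27.2 CPM (log2 fold change 1.00 ± 0.16, limma adjusted p = 0.0138). Aph1b, a subunit gene of the gamma-secretase complex 8.36 kb beyond Car12, fell from 61.2 ± 9.35 to 30.9 ± 4.40 CPM (-0.97 ± 0.16, adjusted p = 0.0177). Neither was called without female replicate 2 (log2 fold changes 0.82 and -0.82), and Aph1b was not called without either castrated male library. The other neighbours were not called between females and males. Arhgef39, on the other side of Car9, had a log2 fold change of 0.93 ± 0.28 (adjusted p = 0.0804), Siah1b and Zrsr2, on either side of Car5b, 0.69 ± 0.19 (adjusted p = 0.0687) and 0.11 ± 0.15, and Usp3, on the other side of Car12, 0.36 ± 0.16. The pseudogene Gm16399, the nearest tested gene between Car13 and Car2, had 0.95 ± 0.41 (adjusted p = 0.192), and Ythdf3, beyond Car2, 0.05 ± 0.18.

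Genes of acid and bicarbonate transport, lactate and hypoxia were taken from lists made with earlier results of these libraries known. Their counts and p-values are therefore a description and not an independent test. Between females and males, none of the 10 tested bicarbonate and anion transporters, 6 sodium-proton exchangers with their partners, 24 proton pump genes and 3 acid sensors was called, with medians of 0.04, 0.26, 0.00 and 0.43 beside -0.01 over all genes. At an unadjusted p below 0.05 the limma counts were 2, 1, 3 and 0, where 24.9% of all genes had such a p, and voom weights gave 0 calls in each. The smallest p of each list belonged to Slc4a11, Slc9a3r1, Atp12a and Gpr132. Slc4a11, of the bicarbonate transporter family, had 16.2 and 17.3 CPM in males against 23.7 and 30.0 in females (0.66 ± 0.18, limma adjusted p = 0.0651). Slc9a3r1, a scaffold of the exchangers, had 0.53 ± 0.15 (limma adjusted p = 0.0762). Atp12a, the non-gastric proton-potassium pump, had 1.31 ± 0.42 (adjusted p = 0.0979), and Gpr132 had 0.72 ± 0.40 (adjusted p = 0.298). Gpr132 stood at 0.852 and 0.940 CPM in males, 1.23 and 2.56 in females, and 0.569 and 0.797 after castration. It passed the filter only through the females, so its fold change is a description.

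Of 7 genes of monocarboxylate transport and lactate, 3 rose in females and none fell, with a list median of 0.12. Slc16a1, the transporter that moves lactate with a proton, had 96.2 and 93.8 CPM in the males, 227 and 352 in the females, and 104 and 122 after castration (females against males 1.57 ± 0.19, limma adjusted p = 0.0063; castrated males against females -1.32 ± 0.19, adjusted p = 0.0184). Slc16a3, the lactate exporter, had 13.4 and 3.64, 38.3 and 98.3, and 13.2 and 16.3 CPM (females against males 3.03 ± 0.56, adjusted p = 0.0224). Ldha, the lactate dehydrogenase subunit of muscle, had 697 ± 56.8 CPM in males and 1399 ± 528 CPM in females (0.95 ± 0.23, adjusted p = 0.0483). In each of these genes both females lay above all other libraries. Slc16a1 was called between females and males with any library left out, Slc16a3 with 3 of the 6 left out in turn (not without female replicate 2 or either castrated male library, lowest 2.15) and Ldha with 1 of the 6 (female replicate 1, lowest value over the 6 0.56).

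Of 10 oxygen-sensing factors, 2 rose in females: Egln1, the prolyl hydroxylase that marks hypoxia-inducible factor for degradation, from 17.9 ± 0.184 to 39.7 ± 13.4 CPM (1.09 ± 0.23, limma adjusted p = 0.0301), and Hif1a, from 100.3 ± 18.1 to 173 ± 38.2 CPM (0.77 ± 0.18, adjusted p = 0.0432). Of 19 targets of hypoxia-inducible factors besides Car9, 5 rose and 1 fell, with a median of 0.35. Pgk1, a glycolytic kinase, rose from 91.4 ± 8.76 to 243 ± 87.8 CPM (1.36 ± 0.23, adjusted p = 0.0171), Pfkfb3, which makes the activator of phosphofructokinase, from 7.45 ± 1.06 to 21.6 ± 6.98 (1.44 ± 0.27, adjusted p = 0.0233), Higd1a from 92.8 ± 13.6 to 166 ± 24.7 (0.83 ± 0.16, adjusted p = 0.0252), and Fam162a, a mitochondrial protein of cell death, from 96.3 ± 19.3 to 238 ± 96.2 (1.25 ± 0.26, adjusted p = 0.0299). Ddit4, an inhibitor of mTOR signalling, had 100.1 and 78.0 CPM in males and 56.7 and 36.8 in females and fell (-0.94 ± 0.21, adjusted p = 0.0376), and it is named after its value was seen, as the only fall. In all, 11 of 79 tested list genes (13.9%) were called by limma between females and males, beside 6.10% of all genes. An unadjusted p below 0.05 was found for 24 of 79 (30.4%), beside 24.9% of all genes. The lists were made with earlier results known, so these shares are a description. The 11 calls became 1 (Slc16a1) without female replicate 2, 2 without either castrated male library and 7 without either male library.

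Castrated males showed no call by limma in any of the 7 lists against intact males, with medians from -0.25 to 0.30 beside 0.00 over all genes. At an unadjusted p below 0.05 there were 2 of 79 genes (2.53%), beside 5.93% of all genes, and with voom weights there was no call. Against females, 2 list genes (2.53%, beside 1.73% of all genes) were called and both were lower in castrated males, Slc16a1 and Pfkfb3 (-1.37 ± 0.27, limma adjusted p = 0.0471). This count was 0 without female replicate 2 or either castrated male library, 12 without female replicate 1, and 7 and 6 without male replicates 1 and 2.

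**Figure D4:**
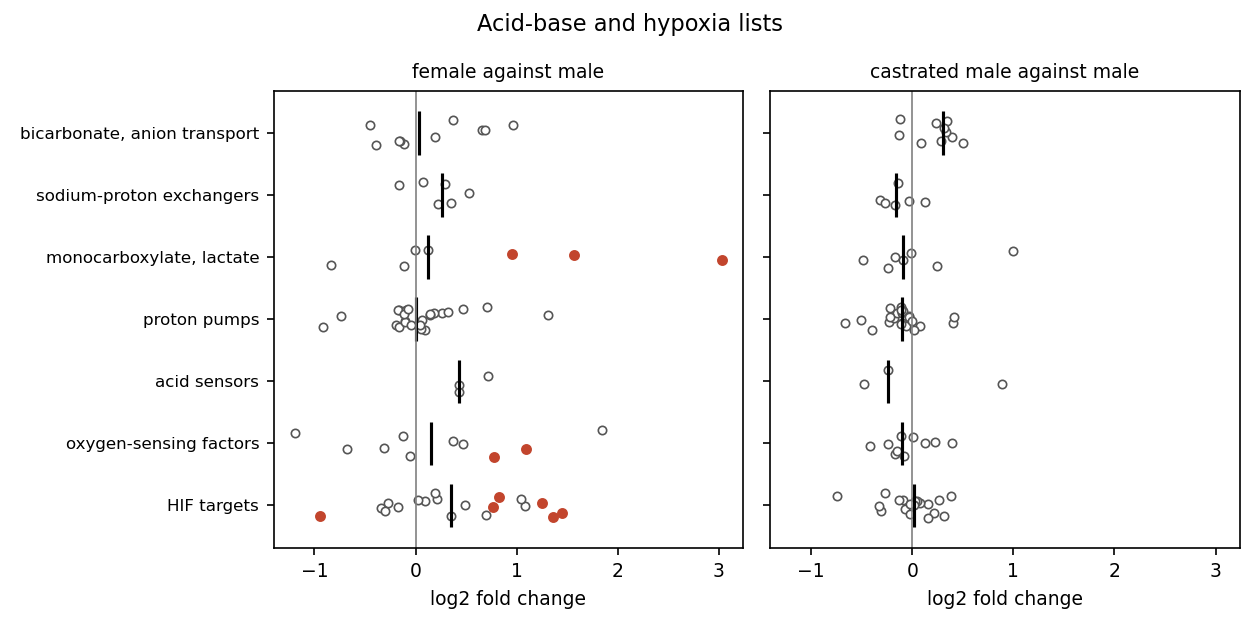
Log2 fold changes of the tested genes of 7 acid-base and hypoxia lists, for females against males and castrated males against males. Each point is a gene, filled where called, with small vertical offsets for legibility, and black bars are list medians. Filled points, 10 to the right and 1 to the left, stand only in the first panel and in 3 of the lists.

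Other cell types can carry carbonic anhydrases, and their markers were read beside these levels. In bulk samples fewer cells of a type and less RNA per cell cannot be told apart. Red blood cells carry Car2 and Car1. The 9 erythroid markers in the table summed to 9.99 to 39.4 CPM for males, 7.05 to 10.4 CPM for females and 7.51 to 11.7 CPM for castrated males, with Car1 at 0 reads, so they were not higher in the libraries with high Car2. The 6 Langerhans and dendritic cell markers summed to 363 to 417 CPM for males, 1066 to 2329 for females and 389 to 455 for castrated males. Of 5 tested, only Cd74, H2-Aa and H2-Ab1 were called as higher in females than in males. Their log2 fold changes were 1.44 to 2.65 when a library was left out. The same 3 genes were called as lower in castrated males than in females. Those calls depended on single libraries, with log2 fold changes from -2.58 to -1.22 when a library was left out. The 9 suprabasal markers summed to 922 to 1188, 1358 to 1669 and 1397 to 1477 CPM, with Krt1, Krtdap and Flg called as higher and Calm5 as lower in females against males. The 7 leukocyte markers summed to 19.2 to 24.2, 25.5 to 39.5 and 23.9 to 31.2 CPM, with Cxcr2 called as higher in females. With each library left out in turn, Krt1 was called in 5 of 6 fits, Krtdap and Calm5 in 2, and Flg and Cxcr2 in 1, and all 5 calls were lost without female replicate 2. The 6 T cell markers summed to 98.1 to 106 CPM for males, 18.1 to 73.3 for females and 78.4 to 157 for castrated males, lowest in both females. The 7 markers of the hair follicle summed to 274 to 325, 240 to 254 and 182 to 203 CPM, and Krt79 was called as lower in castrated males than in females. That call depended on single libraries, with log2 fold changes from -0.99 to -0.57 when a library was left out. The part of these cell types in the levels of the carbonic anhydrases was not tested. Markers of muscle, fat and cartilage, tissues of the ear, summed to at most 8.18, 1.49 and 1.06 CPM in a library, with Myh4, Tnnt3, Adipoq, Acan and Matn1 at 0 reads.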

How the data were processed

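The tools listed in the submitters' processing notes are STAR 2.7.5a, HTSeq 0.11.1, FastQC and Picard, and the builds are mm10 and GRCm38. How the counting treated strand, which annotation it used and how the table was scaled was not stated there or in the labels. The deposited values are a score per gene: whole numbers that sum to about 20000000 in each library, which are read counts scaled and rounded before deposit. Within a library 100% of the scores lay within 0.5 of a multiple of 1 step, and division by that step gave whole reads. Because the deposited score is not a count, limma on a log scale was used and no count model was run.

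TMM factors (0.927 in female replicate 2, 1.01 to 1.03 in the other 5) were computed from the recovered reads. All 6 libraries entered 1 limma fit (version 3.58.1 under R 4.3.3) of log2(CPM + 0.5), which estimated a mean for each group with an intensity trend and 3 residual degrees of freedom. P-values are two-sided and Benjamini-Hochberg adjusted within a comparison over all 15413 tested genes, and they measure the spread between pools. The scripts were tested on simulated data. GENCODE vM21 matched 49326 of 49671 gene IDs and gave positions and exon lengths.

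The chosen genes and all lists were chosen with earlier results of these data known. By the rule for names, the 16 family genes are accounted for, up to 4 called genes with the smallest p are named per list (or 1 where none was called), and the 3 genes most alike are named for each chosen gene, except for results that are not reported here. Alternatives were other scalings, pseudocounts, filters, voom weights, no trend, a replicate block, fits of 2 groups and leaving out each library. The second male sample is numbered 2 by its title, which was followed, and 3 by its library name.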

Additional observations from a re-analysis of the deposited data

How the results depend on the processing

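Each result was recomputed under 16 alternatives. They refit the same libraries, so they show how a result depends on the processing and add no independent evidence for the chosen genes. Of the chosen genes, 3 were called between females and males, but 1 with no filter on low values and 1 with no intensity trend, and from 1 to 3 when a library was left out. Between castrated males and females 2 were called, but 1 with no filter, 1 with no intensity trend, 3 when only the 2 groups compared were fitted, and from 1 to 3 when a library was left out. The 11 list genes called between females and males became 1 with no filter, 0 with no intensity trend, 2 when only the 2 groups were fitted, and from 1 to 16 when a library was left out. The 2 list genes of castrated males against females became 1 at a pseudocount of 0.1 CPM, 1 with voom weights, 0 with no filter, 0 with no intensity trend, 7 when only the 2 groups were fitted, and 0 to 12 when a library was left out. Both counts of castrated against intact males were 0 under all 16. The causes were not tested.

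Car2 kept its direction and its call under all 16 alternatives in both comparisons with females. Car12 lost its call in 3 of 16 between females and males and in 5 of 16 between castrated males and females, and Car9 in 10 of 16 between females and males. Fold changes near 0 changed sign when a library was left out: Car5b ranged from -0.37 to 0.14 for females against males, from -0.17 to 0.28 for castrated against intact males and from -0.082 to 0.42 for castrated males against females, and against intact males Car9 ranged from -0.22 to 1.11 and Car12 from -0.031 to 0.52 in castrated males. Over all genes 940 were called between females and males, but 103 with no filter, 103 with no intensity trend and 49 without female replicate 2, and 266 between castrated males and females, but 33, 59 and 36. For the latter comparison, leaving out the other libraries gave 35 and 30 (castrated male replicates 1 and 2), 605 and 516 (male replicates 1 and 2) and 1283 (female replicate 1), and voom weights gave 88. For females against males these were 274 and 274, 709 and 533, 1723, and 640.

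The replicate numbers were not treated as pairs in the main fit. Deviations of same-numbered libraries correlated at -0.153 between males and females, -0.0103 between males and castrated males and 0.194 between females and castrated males. Each value rests on 2 libraries a group, so it cannot show whether the numbers pair the samples. With the replicate block, 2, 0 and 2 chosen genes and 10, 0 and 2 list genes were called in the 3 comparisons. One read was worth 0.102 to 0.128 CPM, which limits Car8, Car9 and Car6.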
